A study of Mus musculus with 26 samples.

Results

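Livers of 6 wild-type mice were compared at opposite points of the circadian day, 3 at CT0 and 3 at CT12. All carried the strain label C57BL/6, were 8 weeks old and served as controls for a liver-specific knockout of Bmal1. They had lived under 12 h of light and 12 h of darkness with free access to food and water, and then spent 2 days in constant darkness. CT0 marks the former start of the light phase and CT12, 12 h later, its former end. Sex is not given in the labels. Each library held RNA of 1 liver, frozen at dissection. The 6 libraries belong to a series of 26 samples, 20 of them RNA-seq libraries of liver. The comparison used every gene symbol with a mean of at least 0.5 RPKM (reads per kilobase of transcript, relative to library size) over the 6 libraries, which left 11392 of 22322 symbols. Each symbol was represented by its most abundant transcript.

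The mammalian clock is a feedback loop. CLOCK or NPAS2 pairs with BMAL1 (gene symbol Arntl), binds E-box motifs and activates the period and cryptochrome genes, whose proteins then inhibit that activation. A second loop runs through REV-ERB repressors and ROR activators, which compete for elements in Arntl, Npas2, Clock and Nfil3, while the PAR bZIP factors DBP, TEF and HLF act through D-boxes. In liver, the loops are known to time heme, bile acid, lipid and glucose metabolism, together with feeding, body temperature and glucocorticoid rhythms.

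Every CT12 library was shallower than every CT0 library. Whole reads could be recovered from the RPKM steps of 99.2% of the 16697 genes above 0 in the 12 Bmal1 libraries. They summed to 6.16 to 6.90 M (in units of 1e6 reads) at CT0 and to 4.72 to 5.97 M at CT12. The most abundant genes could not be resolved, so these sums understate the depth. The part of depth in the results was not tested. Albumin took 7.11 to 8.05% of the summed RPKM at CT0 and 6.09 to 7.35% at CT12. No marker of another cell type was called higher at CT12, but only 3.46% of all tested genes were, and none of 10 hepatocyte markers. Markers of several non-hepatocyte cell types were lower at CT12, and their values stand with the results on cell type markers.

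At CT12, 1235 genes differed from CT0 at an adjusted p under 0.05 (limma, Benjamini-Hochberg, fitted on log2(RPKM + 0.5)). Of the 11392 genes, 394 rose (3.46%) and 841 fell (7.38%). Because 0.5 was added before taking logs, log2 differences of genes with low RPKM are understated. The median change of all genes was -0.08. With libraries scaled by a trimmed mean of log ratios that median was 0.00 and the split became 659 higher and 584 lower. The excess of falling genes thus did not hold under that scaling. It remained with scaling that left out the 100 most abundant genes (456 higher and 824 lower). All 394 rising genes and 837 of the 841 falling ones had 3 CT12 libraries entirely above or below the 3 CT0 libraries. Among all genes, 10.9% had every CT12 library above every CT0 library and 22.7% had every CT12 library below. Most differences were modest: 305 rises and 655 falls were smaller than 1 on the log2 scale, and 22 rises and 21 falls reached 2 or more. The rising genes went from 3.09% to 5.66% of the summed RPKM of all 22322 symbols, and the falling genes from 12.0% to 8.14%.

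The counts depended on the number of livers. With 1 library left out, the count of changed genes was 647 without CT0 replicate 2, 648 without CT12 replicate 3, 701 without CT0 replicate 3 and 725 without CT12 replicate 1. In all, 157 rises and 334 falls were called whichever of the 6 libraries was left out. A single gene described below as having risen or fallen is among those 491 unless a sentence says otherwise. Counts for gene lists are of calls with all 6 libraries, and "kept" gives how many of those rises and falls were called whichever library was left out. Over all genes 10.8% were called in either direction, so a list with a share of calls near that does not stand out from the background. Nothing in the labels pairs a CT0 mouse with a CT12 mouse, so p-values measure the spread between livers. That spread was pooled over control and knockout livers in 1 fit, so no SE or p-value rests on the 6 control livers alone. With only the control livers in the fit, limma called 1144 genes, 381 higher and 763 lower.

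**Figure D1:**
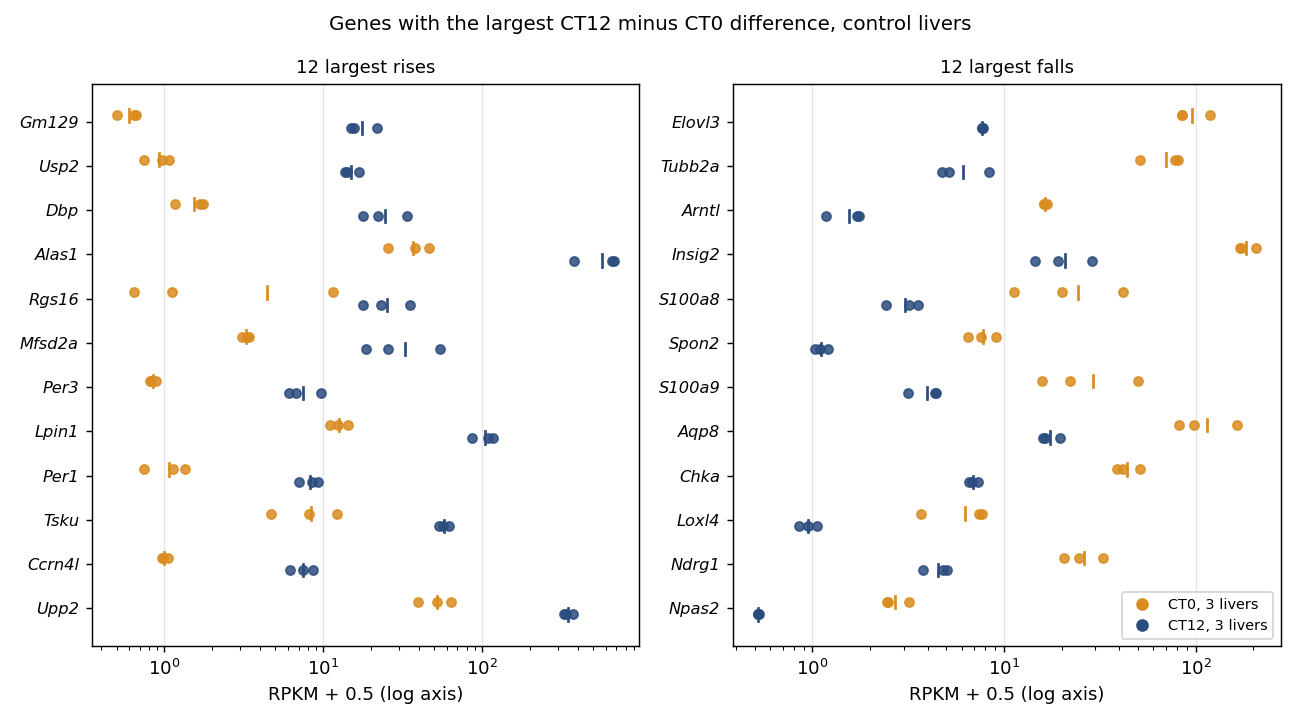
RPKM + 0.5 on a log axis for the 12 genes with the largest rises (left) and the 12 with the largest falls (right), with 1 point per liver, 3 at CT0 (orange) and 3 at CT12 (blue), and a tick at the mean. The colours do not overlap for any of the 24 genes; the smallest gap is that of Rgs16, whose CT0 replicate 3 stood at 11.01 RPKM against 17.41 in the lowest CT12 liver.

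Clock genes known as E-box targets were mostly higher at CT12. Of 14 tested, 10 rose (9 kept) and none fell, with a median change of 1.66 against -0.08 for all genes. The members had been gathered as known E-box targets, so their direction describes the phase sampled.

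Gm129, also named Ciart, encodes a repressor of the CLOCK and BMAL1 complex and showed the largest rise of all genes. It stood at 0.14, 0.00 and 0.16 RPKM in the CT0 livers and at 14.5, 15.19 and 21.25 RPKM in the CT12 livers. It was thus close to the detection limit at CT0, with 0 recovered reads in 1 liver, and clearly expressed in every CT12 liver. The difference was 4.85 ± 0.41 on the log2 scale (SE from the pooled spread, n = 3 against 3, adjusted p = 1.81e-05).

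The 3 period genes, which encode the core negative arm, all rose. Per1 was 0.64, 0.85 and 0.24 RPKM at CT0 and 6.5, 7.96 and 8.72 RPKM at CT12, a difference of 2.97 ± 0.39 (adjusted p = 0.00053). Per2 was 1.5, 0.96 and 1.28 RPKM at CT0 and 8.95, 10.76 and 10.05 RPKM at CT12, a difference of 2.59 ± 0.20 (adjusted p = 1.2e-05). Per3 was 0.31, 0.39 and 0.33 RPKM at CT0 and 6.21, 9.22 and 5.57 RPKM at CT12, a difference of 3.13 ± 0.19 (adjusted p = 2.02e-06). In each case the lowest CT12 liver was several times above the highest CT0 liver. The cryptochromes, their partners, gave no call: Cry1 differed by -0.02 ± 0.11 (adjusted p = 0.91) and Cry2 by 0.42 ± 0.15 (adjusted p = 0.0977), with overlapping livers. For Cry1 the sign depended on the scaling.

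All 3 PAR bZIP genes were higher at CT12. Dbp was 0.66, 1.25 and 1.18 RPKM at CT0 and 21.67, 33.41 and 17.31 RPKM at CT12, a difference of 3.98 ± 0.29 (adjusted p = 7.26e-06). Tef was far more abundant at CT0 and spread less between livers, with 8.76, 9.37 and 7.69 RPKM at CT0 and 45.1, 44.97 and 46.89 RPKM at CT12, a difference of 2.35 ± 0.11 (adjusted p = 2.37e-07). Hlf went from a mean of 3.15 ± 0.67 to 6.04 ± 1.44 RPKM (SD, n = 3), a difference of 0.83 ± 0.19 (adjusted p = 0.0162). The Hlf call was lost without CT0 replicate 1 (adjusted p = 0.0597), CT12 replicate 2 (0.0528) or CT12 replicate 3 (0.0537).

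The pair of REV-ERB genes behaved differently. Nr1d2, which encodes REV-ERBβ, was 3.59, 3.21 and 6.83 RPKM at CT0 and 17.54, 19.38 and 16.97 RPKM at CT12, a difference of 1.94 ± 0.24 (adjusted p = 0.000374). Nr1d1, which encodes REV-ERBα, was 2.04, 2.05 and 6.57 RPKM at CT0 and 2.35, 2.95 and 1.56 RPKM at CT12, with no call (-0.39 ± 0.37, adjusted p = 0.545). CT0 replicate 3 held the highest value of both genes among the CT0 livers. Without that liver the Nr1d1 difference was 0.10. Bhlhe40, which encodes the E-box repressor DEC1, rose from 16.16 ± 4.18 to 42.06 ± 3.57 RPKM (adjusted p = 0.00178). Its relative Bhlhe41 gave no call (0.71 ± 0.84, adjusted p = 0.64), with CT12 livers at 3.58, 3.48 and 0.10 RPKM.

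Of 6 clock genes gathered as REV-ERB targets, 4 fell and 1 rose. Arntl was 16.35, 15.7 and 15.71 RPKM at CT0 and 1.26, 0.68 and 1.21 RPKM at CT12, a difference of -3.43 ± 0.16 (adjusted p = 1.99e-07). Npas2, which encodes an alternative partner of BMAL1, was 1.99, 2.68 and 1.94 RPKM at CT0 and 0.03, 0.02 and 0.02 RPKM at CT12 (-2.37 ± 0.13, adjusted p = 9.09e-07). Npas2 RNA was thus barely detected in any CT12 liver, while Arntl RNA stayed above the 0.5 RPKM used as the filter in every one. Clock fell by less, from 12.91 ± 0.52 to 6.67 ± 1.84 RPKM (-0.94 ± 0.16, adjusted p = 0.00285). Nfil3, which encodes the D-box repressor E4BP4, fell from 12.57 ± 1.92 to 5.35 ± 0.79 RPKM (-1.16 ± 0.16, adjusted p = 0.000769).

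Of 20 clock-linked kinases, ubiquitin ligases and cofactors, 2 rose and none fell. Usp2, which encodes a deubiquitinase, was 0.46, 0.57 and 0.24 RPKM at CT0 and 13.27, 16.36 and 13.7 RPKM at CT12 (4.03 ± 0.32, adjusted p = 1.2e-05). Nampt, which encodes the rate-limiting enzyme of NAD salvage, rose from 11.13 ± 0.24 to 41.94 ± 6.23 RPKM (1.86 ± 0.11, adjusted p = 1.31e-06). The other 18, among them Csnk1d, Csnk1e, Btrc and Gsk3b, gave no call and lay between -0.33 and 0.28.

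The time difference in control livers was set against that in the 6 knockout livers by the interaction of genotype and time, which called 155 of 11392 genes (1.36%), and 81 to 143 when 1 of the 12 libraries was left out, the fewest without CT0 control replicate 2. Of the clock genes, Gm129, Dbp, Per2, Per3, Tef, Arntl, Npas2 and Clock passed that test. Dbp rose by 3.98 in control livers and by 1.36 in knockout livers, an interaction of -2.62 ± 0.41 (adjusted p = 0.00888). Per1 (interaction adjusted p = 0.401), Nr1d2 (0.259), Bhlhe40 (0.0503) and Usp2 (0.137) did not pass it. Arntl RPKM itself was 6.37 at CT0 and 3.99 at CT12 in the libraries labelled knockout. The plot of clock genes places these values side by side.

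**Figure D2:**
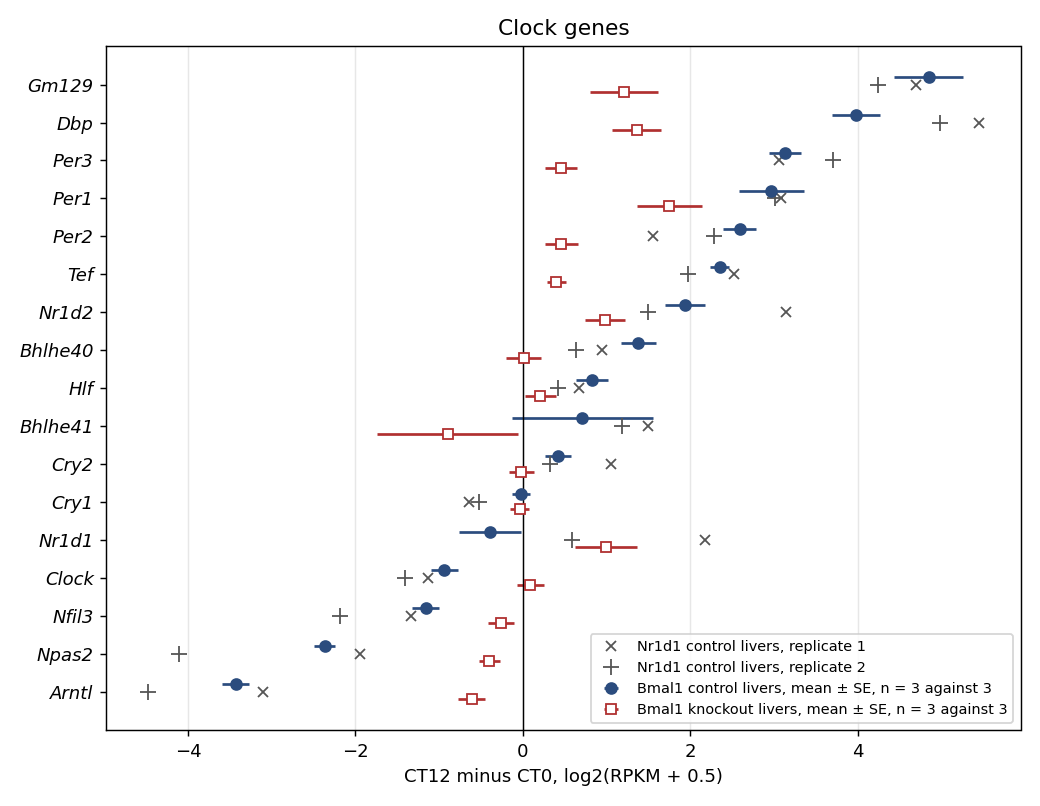
CT12 minus CT0 difference in log2(RPKM + 0.5) for 17 genes of the E-box and REV-ERB clock lists. Filled circles are the Bmal1 control livers and open squares the Bmal1 knockout livers (mean ± SE, n = 3 against 3), and crosses and plus signs are the differences in replicates 1 and 2 of the Nr1d1 control livers, 1 liver per time; Gm129 and Arntl mark the ends of the order, at 4.85 and -3.43.

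Promoters were read from RefSeq (build GRCm38.p6) as 300-base windows, 250 bases before and 50 after each annotated start. By symbol or alias, 9111 of the tested genes were matched. Some aliases led to a different gene: Trf was matched to Trh, Arg1 to Tinagl1, Asl to Adsl and Npm1 to Gja1. The shares below thus include some windows of other genes. Windows were searched on both strands for the E-box CACGTG, the D-box TTANGTAA, the REV-ERB or ROR element TAGGTCA, the heat shock element GAANNTTC and the cyclic AMP response element TGACGTCA, none of which contains another. The E-box stood in 9.81% of all windows, in 13.3% of those of rising genes, in 10.1% of those of falling genes and in 7 of 25 windows (28.0%) of genes that rose by 2 or more. The D-box stood in 1.62% of all windows, in 3.52% of those of rising genes and in 1.44% of those of falling genes. The REV-ERB or ROR element stood in 2.15% of all windows, in 1.51% of those of rising genes and in 3.65% of those of falling genes; among falls of 2 or more it stood in 1 of 22 windows (4.55%). The heat shock element stood in 5.99% of all windows, 4.77% of those of rising genes and 5.43% of those of falling genes. The cyclic AMP response element stood in 2.94%, 2.01% and 1.77% of these windows. Among the clock genes listed as E-box targets, Gm129, Per1, Tef, Cry1 and Bhlhe41 held the E-box in these windows. Dbp, Per3, Nr1d1, Nr1d2, Hlf and Cry2 did not. A match is a run of letters and not a measured binding site.

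The genes shown are the 3 largest rises with an E-box, the 2 largest rises with a D-box that are not among them, and the 2 largest falls with the REV-ERB or ROR element, to let the motifs be seen in place. Capitals mark any E-box, D-box or REV-ERB or ROR element. Each run covers 250 bases before the start and 30 from it on, except that of Arntl, which is the 30 bases around its match.
Gm129: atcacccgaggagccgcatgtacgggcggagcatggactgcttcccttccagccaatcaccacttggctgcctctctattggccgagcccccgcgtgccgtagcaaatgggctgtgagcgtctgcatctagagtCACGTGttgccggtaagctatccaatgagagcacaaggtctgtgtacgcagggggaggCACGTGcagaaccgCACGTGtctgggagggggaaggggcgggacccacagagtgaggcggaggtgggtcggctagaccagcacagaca
Per1: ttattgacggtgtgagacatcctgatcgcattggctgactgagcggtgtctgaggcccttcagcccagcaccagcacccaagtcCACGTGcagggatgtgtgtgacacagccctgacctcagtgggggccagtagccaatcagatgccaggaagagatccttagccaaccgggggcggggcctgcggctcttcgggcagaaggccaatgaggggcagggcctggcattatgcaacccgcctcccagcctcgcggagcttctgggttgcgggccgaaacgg
Coq10b: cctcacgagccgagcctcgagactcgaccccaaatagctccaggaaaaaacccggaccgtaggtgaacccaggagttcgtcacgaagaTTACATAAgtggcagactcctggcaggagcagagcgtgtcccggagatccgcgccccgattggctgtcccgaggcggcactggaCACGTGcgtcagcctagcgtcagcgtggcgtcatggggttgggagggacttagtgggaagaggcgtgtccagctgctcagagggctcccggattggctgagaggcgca
Per3: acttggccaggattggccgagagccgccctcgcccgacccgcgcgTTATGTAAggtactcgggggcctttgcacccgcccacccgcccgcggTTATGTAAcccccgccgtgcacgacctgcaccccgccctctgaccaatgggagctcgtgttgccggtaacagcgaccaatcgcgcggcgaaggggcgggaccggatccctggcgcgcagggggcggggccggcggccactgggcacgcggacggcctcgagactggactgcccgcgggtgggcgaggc
Slc16a12: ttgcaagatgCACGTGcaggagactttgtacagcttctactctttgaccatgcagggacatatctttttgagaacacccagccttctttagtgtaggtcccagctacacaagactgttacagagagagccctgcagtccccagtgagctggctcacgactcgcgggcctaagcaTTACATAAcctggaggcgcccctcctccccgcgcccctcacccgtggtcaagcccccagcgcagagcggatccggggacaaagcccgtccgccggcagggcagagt
Arntl: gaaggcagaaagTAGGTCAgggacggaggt
Tjp3: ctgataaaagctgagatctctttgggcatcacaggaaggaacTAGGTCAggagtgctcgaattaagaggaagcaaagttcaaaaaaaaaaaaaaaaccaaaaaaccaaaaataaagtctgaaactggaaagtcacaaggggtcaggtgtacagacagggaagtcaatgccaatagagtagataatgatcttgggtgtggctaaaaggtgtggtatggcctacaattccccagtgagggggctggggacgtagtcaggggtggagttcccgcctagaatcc

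The Gm129 run (chr3:95882199-95882478, minus strand) holds 3 E-boxes, 116, 58 and 44 bases before the start. The Per1 run (chr11:69098699-69098978, plus strand) holds 1 E-box, 166 bases before it. Coq10b, which encodes a coenzyme Q binding protein, has an E-box 78 bases and a D-box 162 bases before the start (chr1:55052520-55052799, plus strand). It rose from 5.74, 4.13 and 4.1 RPKM to 28.35, 29.57 and 28.8 RPKM (2.53 ± 0.25). The Per3 run (chr4:151044636-151044915, minus strand) holds 2 D-boxes, 205 and 158 bases before the start. Slc16a12, which encodes a monocarboxylate carrier, has a D-box 76 bases and an E-box 240 bases before the start (chr19:34747299-34747578, minus strand). It rose from 12.48, 15.52 and 15.98 RPKM to 35.47, 36.91 and 35.34 RPKM (1.27 ± 0.11). The Arntl element begins 30 bases after the start (run at chr7:113207529-113207558, plus strand). Tjp3, which encodes a tight junction protein, has the element 208 bases before the start (chr10:81291552-81291831, minus strand). It fell from 13.63, 12.52 and 11.51 RPKM to 2.42, 3.22 and 3.38 RPKM (-1.90 ± 0.14).

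Outside the clock, the largest rise was that of Alas1, the rate-limiting enzyme of heme synthesis. Alas1 stood at 45.88, 37.24 and 24.99 RPKM at CT0 and at 658.97, 379.6 and 678.75 RPKM at CT12, a 15.9-fold difference of means (3.97 ± 0.39 on the log2 scale, adjusted p = 6.38e-05). Por, which encodes the reductase that supplies electrons to cytochromes P450, rose from 40.12, 73.77 and 52.86 RPKM to 207.12, 170.84 and 206.46 RPKM (1.84 ± 0.21, adjusted p = 0.0002). Clpx, which encodes the unfoldase subunit of a mitochondrial protease that acts on ALAS1, was 153.44, 175.96 and 188.0 RPKM at CT0 and 33.31, 31.04 and 38.25 RPKM at CT12, with every CT12 liver lower (-2.32 ± 0.15, adjusted p = 3.08e-06). Hmox1, which encodes the heme-degrading enzyme, fell from 10.82 ± 0.70 to 6.27 ± 1.19 RPKM (adjusted p = 0.00603). These were the 4 calls among 18 genes of heme synthesis and P450 electron transfer. With libraries scaled by a trimmed mean of log ratios, 6 rose and 2 fell.

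Of 60 cytochrome P450 and conjugation genes, 7 rose and 3 fell (3 and 1 kept). Cyp2a5, a coumarin hydroxylase, was 88.6, 141.8 and 113.67 RPKM at CT0 and 878.59, 622.12 and 744.93 RPKM at CT12 (2.71 ± 0.20, adjusted p = 8.59e-06). Cyp2a4 rose alongside, from 8.00 ± 1.81 to 50.99 ± 10.77 RPKM (2.60 ± 0.24, adjusted p = 3.71e-05), but this close paralog may share reads with Cyp2a5. Cyp2e1, the ethanol-oxidising P450, made the largest gain in RPKM of any called gene, from 2277.95 ± 382.79 to 3735.89 ± 334.17 (0.72 ± 0.20, adjusted p = 0.0404). That call was lost when any 1 of the 6 libraries was left out (adjusted p from 0.0568 without CT12 replicate 2 to 0.139 without CT0 replicate 1). Ugt2b5, a glucuronosyltransferase, rose from 286.73 ± 12.18 to 448.01 ± 13.95 RPKM (adjusted p = 0.00603). Inmt, which encodes an indole and thioether methyltransferase, rose from 417.50 ± 15.01 to 718.66 ± 66.76 RPKM (0.78 ± 0.12, adjusted p = 0.00159).

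Bile acid genes moved both ways. Cyp7a1, the rate-limiting enzyme of the classical pathway, was 15.93, 17.25 and 17.32 RPKM at CT0 and 78.61, 44.53 and 74.76 RPKM at CT12 (1.90 ± 0.27, adjusted p = 0.00113). The next enzyme of the pathway, encoded by Hsd3b7, was lower in every CT12 liver: it was 316.05, 362.56 and 379.29 RPKM at CT0 and 102.7, 107.94 and 134.78 RPKM at CT12 (-1.62 ± 0.13, adjusted p = 1.32e-05). Abcb11, the canalicular bile salt export pump, fell from 204.83 ± 18.37 to 90.38 ± 3.04 RPKM (-1.17 ± 0.11, adjusted p = 6.03e-05). Abcg5, of the sterol exporter, rose from 32.79 ± 5.36 to 50.49 ± 2.69 RPKM (adjusted p = 0.00547). In all, 2 of 19 bile acid synthesis genes rose and 2 fell (1 and 1 kept), and 4 of 25 transporters of bile acids, anions and cations rose and 2 fell (2 and 1 kept).

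Of 30 genes of cholesterol synthesis and uptake none rose and 3 fell (1 kept), a share of 10.0% that is close to the background, with a median of -0.25. The largest fall was that of Insig2, which encodes an endoplasmic reticulum retention factor of the sterol sensor. It was 172.76, 170.62 and 204.8 RPKM at CT0 and 18.54, 14.02 and 28.14 RPKM at CT12, a 9.03-fold drop of means (-3.20 ± 0.24, adjusted p = 1.02e-05).

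Lipid synthesis genes changed singly. Elovl3, a fatty acid elongase, had the largest fall of all genes, from 84.51, 117.9 and 84.57 RPKM to 7.18, 7.31 and 7.13 RPKM (-3.62 ± 0.16, adjusted p = 1.99e-07). Lpin1, which encodes a phosphatidate phosphatase of triglyceride synthesis that also acts as a coactivator, rose from 11.83, 10.56 and 13.78 RPKM to 117.02, 109.09 and 85.68 RPKM (3.05 ± 0.48, adjusted p = 0.00185). Its relative Lpin2 rose from 37.92 ± 5.03 to 90.02 ± 9.51 RPKM (adjusted p = 0.00332), and the desaturase gene Fads2 from 167.54 ± 12.78 to 289.45 ± 38.43 RPKM (adjusted p = 0.00475). The core synthetic genes Acaca, Acly, Fasn and Scd1 gave no call (0.03, -0.45, -0.22 and -0.54). Of the 29 genes tested, 5 rose and 3 fell (4 and 2 kept).

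Genes that store or move lipid also divided. Plin2, which encodes the main lipid droplet coat protein of hepatocytes, fell from 258.53 ± 2.60 to 119.16 ± 24.82 RPKM (-1.13 ± 0.19, adjusted p = 0.00269). Pnpla2, the adipose triglyceride lipase, rose from 12.97 ± 2.03 to 20.11 ± 0.84 RPKM (adjusted p = 0.00788). Mfsd2a, a carrier of lysophosphatidylcholine, rose from 2.93, 2.57 and 2.81 RPKM to 25.07, 17.98 and 54.01 RPKM (3.18 ± 0.52, adjusted p = 0.00252). The spread at CT12 was wide, yet all 3 livers stood above those at CT0. Chka, the choline kinase of phosphatidylcholine synthesis, fell from 38.25, 50.59 and 41.14 RPKM to 6.03, 6.33 and 6.82 RPKM (-2.66 ± 0.14, adjusted p = 8.03e-07). Etnk2, an ethanolamine kinase, rose from 72.24 ± 5.65 to 119.04 ± 10.26 RPKM (adjusted p = 0.000688). Of 33 lipid droplet, lipolysis and lipoprotein genes, 4 rose and 3 fell (2 and 1 kept), and of 25 phospholipid and choline genes, 3 rose and 3 fell (3 and 2 kept).

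Among 35 genes of fatty acid oxidation and ketogenesis, 4 rose and 2 fell (2 and 1 kept), with a median of 0.21. Cpt1a, which controls fatty acid entry into mitochondria, rose from 58.10 ± 6.65 to 105.56 ± 12.18 RPKM (0.86 ± 0.15, adjusted p = 0.00383). Pdk4, an inhibitory kinase of pyruvate dehydrogenase, fell from 3.11, 8.38 and 5.18 RPKM to 0.96, 0.84 and 0.98 RPKM (-1.99 ± 0.26, adjusted p = 0.000593).

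Genes of glucose and glycogen metabolism leaned upward: 7 of 26 rose, 1 fell (4 and 1 kept) and the median was 0.32. Gys2, liver glycogen synthase, was 45.01, 44.07 and 52.38 RPKM at CT0 and 157.33, 137.45 and 140.03 RPKM at CT12 (1.61 ± 0.13, adjusted p = 1.2e-05). Ppp1r3c, a glycogen-targeting subunit of protein phosphatase 1, was the 1 gene that fell, from 38.57 ± 7.57 to 11.69 ± 4.92 RPKM (-1.73 ± 0.26, adjusted p = 0.00154). Pck1, the gluconeogenic carboxykinase, rose from 361.62, 474.59 and 434.62 RPKM to 859.55, 1089.5 and 1270.05 RPKM (1.33 ± 0.23, adjusted p = 0.00332). Pfkfb3, which makes the activator of phosphofructokinase, rose from 1.56 ± 0.76 to 10.34 ± 1.89 RPKM (2.45 ± 0.34, adjusted p = 0.000758). Glycogen synthase and a gluconeogenic enzyme were both higher at the same time of day, while G6pc differed by 0.02.

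In insulin and IGF signalling, 5 of 30 genes rose and 5 fell (2 and 1 kept). Irs2, an insulin receptor substrate, fell from 3.67 ± 1.12 to 1.25 ± 0.42 RPKM (-1.25 ± 0.24, adjusted p = 0.00719), and Pik3r1, a regulatory subunit of PI3-kinase, rose from 11.80 ± 0.80 to 20.18 ± 2.23 RPKM (adjusted p = 0.00404). Among 48 nuclear receptors and metabolic transcription factors, 10 rose and 7 fell (4 and 5 kept). Ppard fell from 5.67 ± 0.52 to 1.54 ± 0.88 RPKM (-1.68 ± 0.27, adjusted p = 0.00242). Atf5 fell from 46.72 ± 7.59 to 14.89 ± 2.24 RPKM (-1.62 ± 0.18, adjusted p = 0.000212), and Stat5b, which carries growth hormone signals, from 15.71 ± 2.42 to 7.38 ± 0.79 RPKM (-1.04 ± 0.12, adjusted p = 0.000234). Klf13 rose from 2.30 ± 0.17 to 6.42 ± 1.26 RPKM and Cebpb from 4.55 ± 0.09 to 9.83 ± 0.43 RPKM (adjusted p = 0.000426 and 0.0107).

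Of 26 genes known to be induced by glucocorticoids, 10 rose and 2 fell, with a median of 0.64 (7 and 1 kept). Fkbp5, a co-chaperone of the glucocorticoid receptor, was 4.09, 9.95 and 6.78 RPKM at CT0 and 32.23, 30.41 and 32.91 RPKM at CT12 (2.20 ± 0.31, adjusted p = 0.000867). The rising members also hold Per1, Lpin1 and Pck1, which stand in other groups too. Serpina6, which encodes the plasma carrier of corticosteroids, rose from 76.79 ± 10.51 to 184.90 ± 29.81 RPKM (1.26 ± 0.17, adjusted p = 0.000592). The members did not move as 1 block, since Sgk1 (-0.09), Klf9 (-0.02) and Gadd45g (0.10) gave no call and Pdk4 fell.

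Of 46 amino acid and urea cycle genes 3 rose and 5 fell (0 and 4 kept), and the median was -0.06. Amt and Gldc, which encode parts of the glycine cleavage system, fell from 45.22 ± 3.90 to 16.81 ± 1.78 RPKM (-1.40 ± 0.11, adjusted p = 1.2e-05) and from 66.72 ± 2.10 to 27.27 ± 3.93 RPKM (-1.29 ± 0.10, adjusted p = 1.24e-05). Cbs, which commits homocysteine to cysteine synthesis, was 235.45, 193.94 and 195.43 RPKM at CT0 and 88.28, 92.03 and 90.99 RPKM at CT12 (-1.19 ± 0.09, adjusted p = 6.9e-06). Bhmt, which remethylates homocysteine with betaine and stood in the choline list, fell from 1436.91, 1252.27 and 1565.75 RPKM to 663.52, 360.79 and 432.31 RPKM (-1.59 ± 0.24, adjusted p = 0.0017). Gclc, the first enzyme of glutathione synthesis, fell from 115.20 ± 8.16 to 64.30 ± 2.38 RPKM (adjusted p = 0.00376). It was 1 of 3 falls (2 kept) among 23 NRF2 and redox genes, of which none rose. Of 22 NAD, folate and one-carbon genes 3 rose and 1 fell (2 and 1 kept). Mthfd1l, a mitochondrial folate enzyme, rose from 0.42 ± 0.05 to 1.43 ± 0.20 RPKM (adjusted p = 0.00744).

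**Figure D3:**
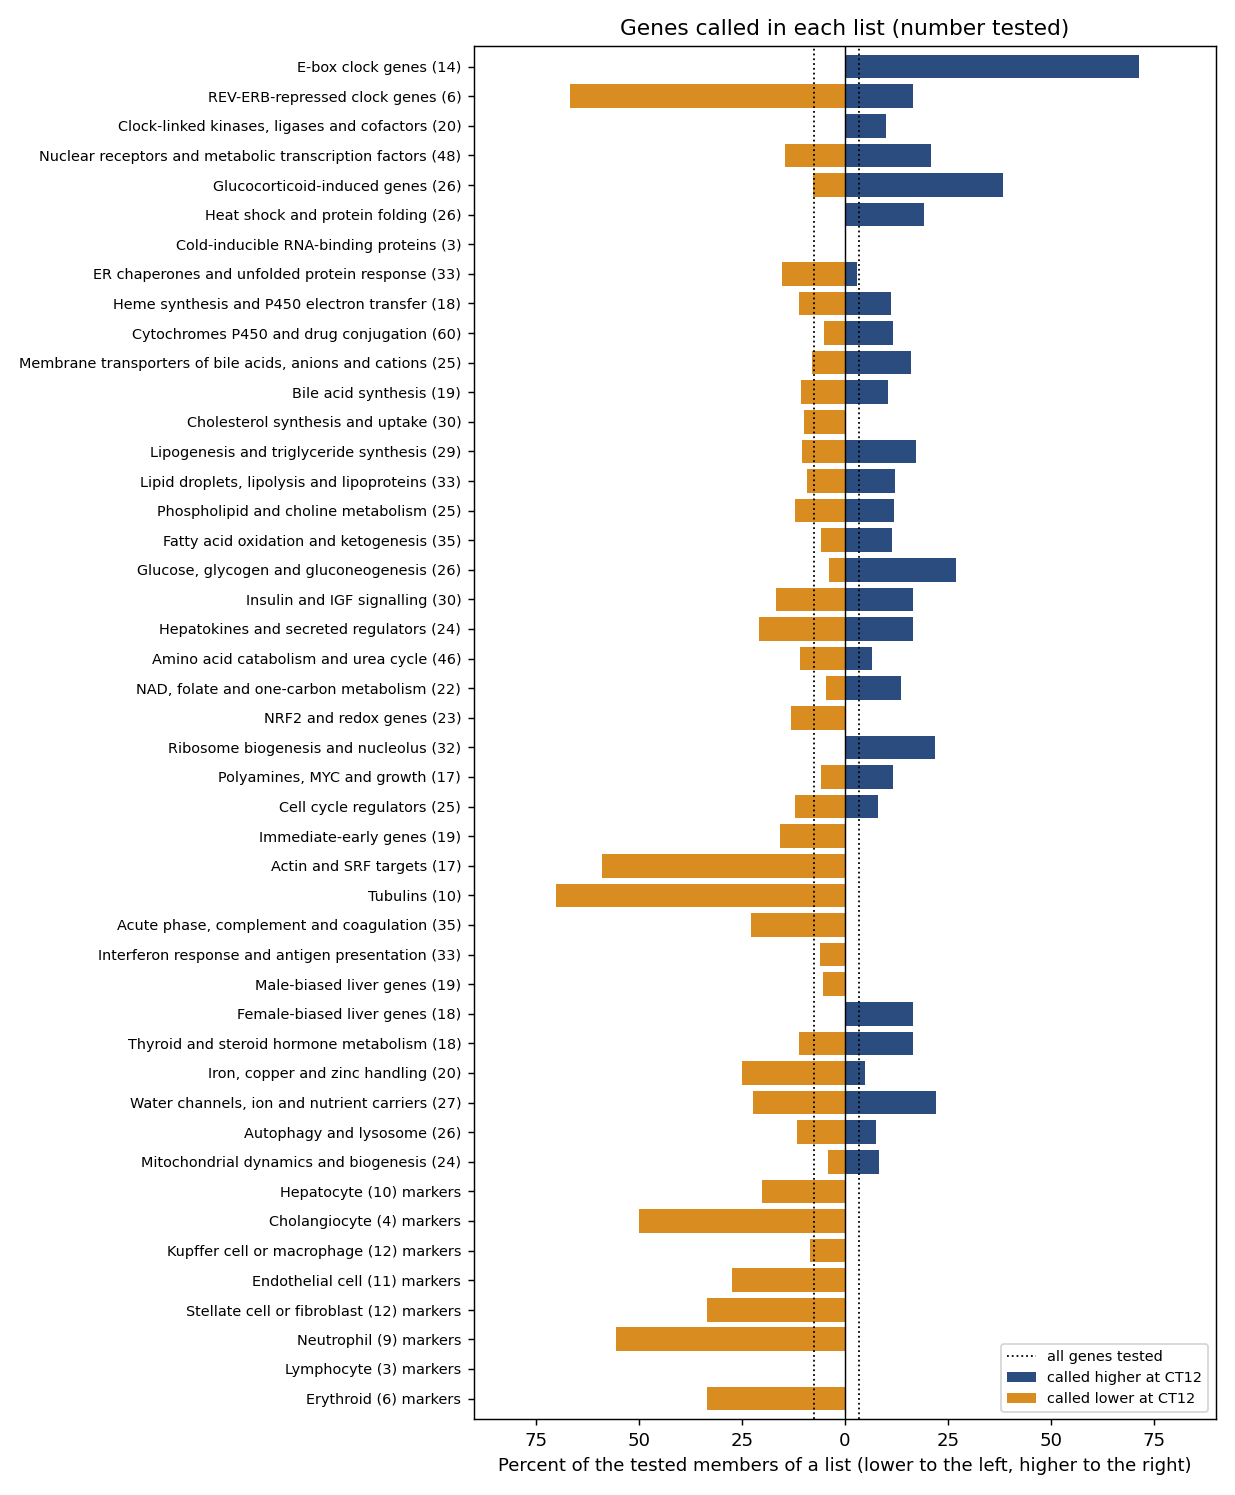
Share of the tested members of each gene list that was called higher (blue, to the right) or lower (orange, to the left) at CT12, with the number tested in parentheses; dotted lines are the shares of all tested genes, 3.46% higher and 7.38% lower. Lists with fewer than 3 tested members are left out, and the E-box clock genes (10 of 14 higher), the tubulins (7 of 10 lower), the REV-ERB-repressed clock genes (4 of 6 lower) and the actin list (10 of 17 lower) reach farthest.

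Protein folding and ribosome production showed small rises. Of 26 heat shock and folding genes 5 rose and none fell, and of 32 ribosome biogenesis genes 7 rose and none fell (medians 0.20 and 0.38). Scaling by a trimmed mean of log ratios raised these counts to 8 and 13. Hspa8, the constitutive cytosolic HSP70, went from 447.8, 255.68 and 263.53 RPKM to 703.23, 601.17 and 656.79 RPKM (1.07 ± 0.27, adjusted p = 0.0265). That call was lost without CT0 replicate 2 (adjusted p = 0.096), CT0 replicate 3 (0.0952), CT12 replicate 1 (0.0803) or CT12 replicate 3 (0.0748). Tcp1, a subunit of the cytosolic chaperonin, rose from 49.71 ± 0.61 to 66.31 ± 1.86 RPKM (0.41 ± 0.08, adjusted p = 0.00761). Rrn3, an initiation factor of RNA polymerase I, rose from 6.15 ± 0.32 to 10.46 ± 1.45 RPKM (0.71 ± 0.14, adjusted p = 0.0082). Of the rises, 1 of the 5 folding genes and 2 of the 7 ribosome biogenesis genes were kept with each library left out. Amd1, of polyamine synthesis, rose from 5.21 ± 0.28 to 11.42 ± 0.97 RPKM (adjusted p = 0.000186).

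Of 33 chaperone and unfolded protein response genes of the endoplasmic reticulum, 1 rose and 5 fell (1 and 3 kept). That is 18.2% called against 10.8% of all genes, and falls outnumbered rises among all genes too. Their median was -0.17 against -0.08 for all genes. Their summed level overlapped, at 2445 to 3863 RPKM at CT0 and 2477 to 2602 RPKM at CT12. Calr, a calcium-binding chaperone, was 411.84, 326.43 and 325.21 RPKM at CT0 and 212.38, 212.18 and 219.35 RPKM at CT12 (-0.71 ± 0.10, adjusted p = 0.000974). Pdia4, a disulfide isomerase, fell from 140.84 ± 29.52 to 86.60 ± 5.28 RPKM (adjusted p = 0.00742). Herpud1, of the degradation machinery of that compartment, was the 1 member that rose, from 110.02, 67.91 and 83.41 RPKM to 269.2, 221.71 and 277.22 RPKM (1.57 ± 0.20, adjusted p = 0.000417).

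Cytoskeletal genes were lower at CT12. Of 10 tubulin genes 7 fell and none rose (median -0.91, all members at or below -0.04), and 5 of the 7 falls were kept with each library left out. Tubb2a was 80.38, 77.74 and 50.92 RPKM at CT0 and 4.66, 4.26 and 7.86 RPKM at CT12, a 12.5-fold drop of means (-3.54 ± 0.29, adjusted p = 1.6e-05). The falls of Tubb5 (-1.21), Tuba1a (-1.06) and Tubb4b (-0.97) were smaller. Tuba4a, for example, fell from 64.50 ± 5.94 to 33.34 ± 2.56 RPKM (adjusted p = 0.000216). Tubulin genes are close paralogs and may share reads.

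Of 17 actin genes and targets of the serum response factor, 10 fell and none rose (median -0.51), and 5 of the falls were kept with each library left out. Actb, β-actin, was 833.76, 805.34 and 925.75 RPKM at CT0 and 481.74, 448.66 and 458.52 RPKM at CT12 (-0.88 ± 0.10, adjusted p = 0.000192). Tagln and Cnn2, which encode actin-binding proteins of contractile cells, fell from 3.97 ± 1.39 to 0.98 ± 0.36 RPKM and from 3.62 ± 0.53 to 1.29 ± 0.44 RPKM (adjusted p = 0.00539 and 0.00471). The gene of the factor itself, Srf, differed by -0.18 without a call. Of 19 immediate-early genes none rose and 3 fell (1 kept).

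**Figure D4:**
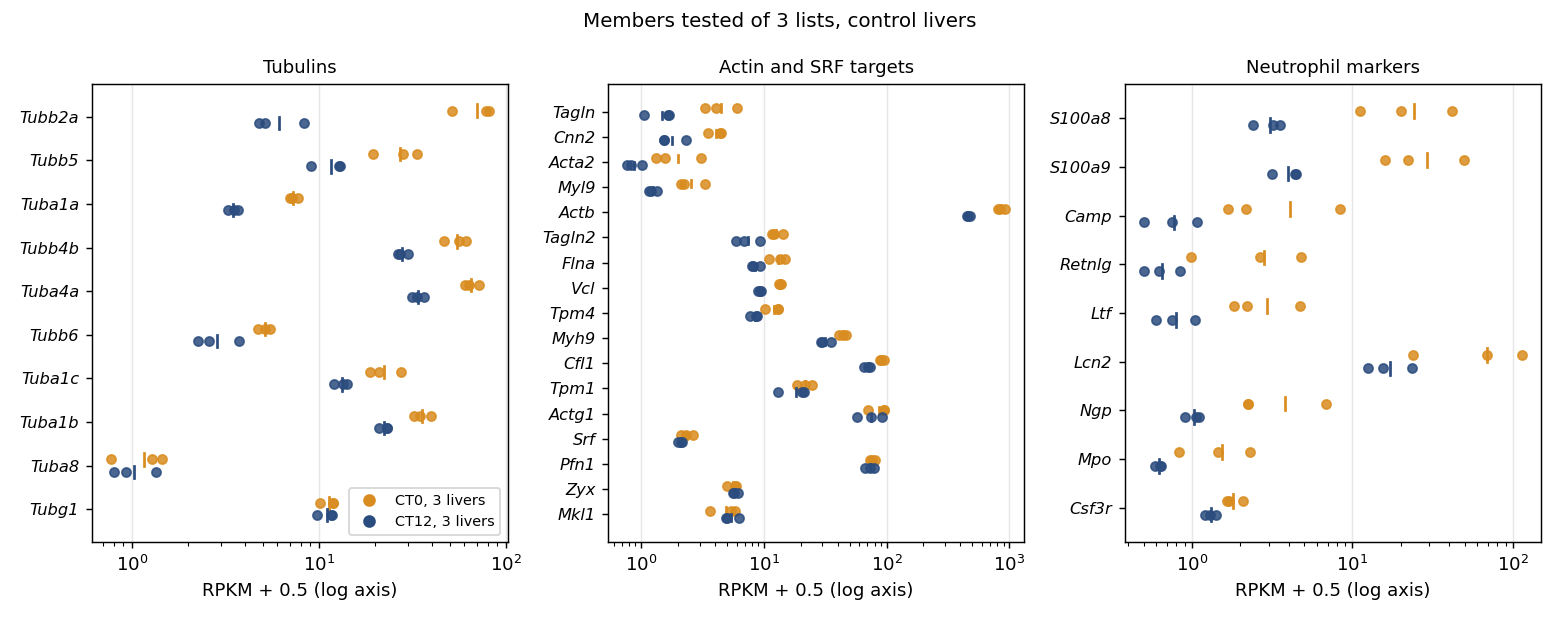
RPKM + 0.5 on a log axis for the tested tubulin genes, actin genes and targets of the serum response factor, and neutrophil markers, with 1 point per liver (CT0 orange, CT12 blue) and a tick at the mean. Tubb2a separates most among tubulins, and the CT0 livers spread far apart for the neutrophil markers S100a8 and S100a9, at 10.72 to 41.17 and 15.37 to 49.3 RPKM.

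Acute phase, complement and coagulation genes leaned downward: none of 35 rose and 8 fell (median -0.41), of which 2 were kept with each library left out. With a trimmed mean of log ratios 1 rose and 5 fell. The 3 fibrinogen genes were among the largest losses in RPKM. Fgg was 3824.81, 3013.03 and 3170.34 RPKM at CT0 and 1944.8, 1799.04 and 1723.28 RPKM at CT12 (-0.87 ± 0.17, adjusted p = 0.00656). Fga fell from 2263.91 ± 268.64 to 1288.12 ± 118.96 RPKM (adjusted p = 0.0126), a call lost without CT12 replicate 3 (0.0536). Fgb fell from 3677.88 ± 637.53 to 2268.32 ± 280.48 RPKM (adjusted p = 0.0365), a call lost when any 1 library was left out (0.0531 without CT12 replicate 1 to 0.129 without CT12 replicate 3) and with a trimmed mean of log ratios (0.076). Trf, transferrin, had the largest loss, from 11716.37 ± 793.45 to 9026.83 ± 423.44 RPKM (-0.38 ± 0.11, adjusted p = 0.0447). That call did not survive leaving out any 1 library (0.0684 without CT12 replicate 1 to 0.144 without CT0 replicate 1) or scaling by a trimmed mean of log ratios (0.137). Gm20425 followed Trf in every liver, falling from 6569.14 ± 460.73 to 4954.31 ± 209.79 RPKM, and whether the pair share reads cannot be told from RPKM. Its call (adjusted p = 0.029) was lost in the same way (0.0511 without CT0 replicate 3 to 0.0985 without CT0 replicate 1).

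Several markers of cells other than hepatocytes were lower at CT12. In whole liver, fewer cells of a type and less RNA per cell cannot be told apart. Of 9 neutrophil markers tested, 5 fell (2 kept) and all 9 had every CT12 liver below every CT0 liver, with a summed level of 74.4 to 232.1 RPKM at CT0 and 20.5 to 30.2 RPKM at CT12. S100a8 and S100a9, the calprotectin subunits, were 41.17, 19.58 and 10.72 RPKM and 49.3, 21.67 and 15.37 RPKM at CT0. At CT12 S100a8 was 2.69, 1.91 and 3.04 RPKM (-2.81 ± 0.45, adjusted p = 0.00218) and S100a9 was 3.87, 2.66 and 3.93 RPKM (-2.72 ± 0.40, adjusted p = 0.00125). CT0 replicate 1 was the highest for both, and the other 2 CT0 livers also stood above all CT12 livers.

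Of 12 Kupffer cell or macrophage markers 1 fell (0 kept), although 10 had all CT12 livers below all CT0 livers (median -0.64, summed level 269.5 to 349.9 against 164.5 to 245.2 RPKM). Among endothelial markers 3 of 11 fell (0 kept, 143.5 to 167.6 against 100.1 to 114.9 RPKM), and among stellate cell or fibroblast markers 4 of 12 fell (1 kept, 212.6 to 275.4 against 147.0 to 174.6 RPKM). Pdgfrb, of stellate cells, fell from 3.60 ± 0.49 to 1.63 ± 0.41 RPKM (-0.96 ± 0.17, adjusted p = 0.00388). Of 4 bile duct markers 2 fell (1 kept, 52.63 to 68.87 against 29.09 to 52.09 RPKM). Erythroid markers had 2 falls among 6 (0 kept), none with a trimmed mean of log ratios (167.3 to 383.0 against 114.0 to 200.4 RPKM), and lymphocyte markers none among 3 (3.79 to 4.67 against 1.90 to 4.69 RPKM). Of 10 hepatocyte markers 2 fell (0 kept), while with that scaling 1 rose and none fell, and Alb differed by -0.23 (adjusted p = 0.339). The summed level of hepatocyte markers was 62663 to 71035 RPKM at CT0 and 52439 to 61838 RPKM at CT12. No adipocyte marker reached the minimum RPKM, with 2 at 0 in every liver, and 1 of 2 acinar markers tested fell (0 kept, 7.76 to 11.54 against 3.89 to 7.31 RPKM). The part of these cell types in the falls of Actb, Tagln, tubulins and acute phase genes was not tested.

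The remaining large changes belong to no common group. Upp2, a liver uridine phosphorylase, was 38.81, 51.87 and 62.95 RPKM at CT0 and 372.43, 337.36 and 325.2 RPKM at CT12 (2.77 ± 0.19, adjusted p = 4.2e-06). Tsku, which encodes the secreted protein tsukushi, rose from 11.75, 7.59 and 4.19 RPKM to 56.25, 53.14 and 61.87 RPKM (2.89 ± 0.51, adjusted p = 0.00392). Ccrn4l, the rhythmic gene of nocturnin, rose from 0.50 ± 0.05 to 6.92 ± 1.25 RPKM (2.89 ± 0.31, adjusted p = 0.000158). Rgs16, a regulator of G-protein signalling, was 0.14, 0.61 and 11.01 RPKM at CT0 and 34.54, 17.41 and 22.66 RPKM at CT12 (3.60 ± 0.87, adjusted p = 0.0228). CT0 replicate 3 differed from the other CT0 livers, and without it the adjusted p was 0.000603. The Rgs16 call was lost without CT0 replicate 1 (0.0784), CT0 replicate 2 (0.0835), CT12 replicate 1 (0.0764) or CT12 replicate 3 (0.0634).

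Among the falls, Spon2, an extracellular matrix protein, went from 6.01, 8.63 and 7.06 RPKM to 0.53, 0.70 and 0.60 RPKM (-2.79 ± 0.23, adjusted p = 1.58e-05). Aqp8, a water channel of hepatocytes, fell from 81.45, 97.45 and 164.36 RPKM to 15.51, 15.86 and 19.17 RPKM (-2.67 ± 0.31, adjusted p = 0.000273). Loxl4, a lysyl oxidase relative, fell from 5.77 ± 2.23 to 0.45 ± 0.10 RPKM (adjusted p = 3.64e-05), and Ndrg1, a stress-responsive gene, from 25.48 ± 6.26 to 4.04 ± 0.65 RPKM (adjusted p = 5.6e-05). Wee1, a mitotic inhibitor kinase and known clock output, rose from 0.96 ± 0.06 to 6.94 ± 0.45 RPKM (2.35 ± 0.22, adjusted p = 5.03e-05), 1 of 2 rises beside 3 falls among 25 cell cycle regulators (2 and 1 kept). Leap2, which encodes the ghrelin receptor antagonist of liver, fell from 102.25, 75.75 and 102.75 RPKM to 32.92, 30.65 and 37.49 RPKM (-1.45 ± 0.20, adjusted p = 0.000759), 1 of 5 falls beside 4 rises among 24 hepatokines (0 rises and 1 fall kept).

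The same times were sampled in a second set of control livers, those of the Nr1d1 knockout experiment, which share no library with the 6 described. They carry the same strain label and age and were kept in the same light regimen, with 1 liver per time in each of 2 replicates, the second sequenced paired-end. With 1 liver per time and replicate they were not tested. Of the 394 rising genes, 338 (85.8%) were higher at CT12 in both replicates, against 38.3% of all tested genes. Of the 841 falling genes, 458 (54.5%) were lower in both, against 15.0% of all tested genes. These shares depend on scaling: with median-centred libraries they were 81.0% against 29.5% of all genes for the rises and 68.7% against 26.1% for the falls. All 22 rises of 2 or more were higher in both replicates, and 17 of the 21 falls of 2 or more were lower in both.

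Single genes differed in how far this held. Dbp differed by 5.45 and 4.99 and Arntl by -3.10 and -4.48 in the Nr1d1 control replicates, the same directions as in Bmal1 controls. Sizes are not comparable between the sets, because the same constant was added to RPKM of unlike scale before taking logs. Summed RPKM was 432965 to 479556 in Bmal1 controls, 857657 (CT0) and 727794 (CT12) in replicate 1 and 2099842 and 2091920 in replicate 2. Tubb2a differed by -2.74 and -3.07, but Tuba1a by 0.02 and -0.25 and Actb by -0.30 and 0.03. S100a8 differed by -0.23 and 1.69 and S100a9 by 0.41 and -0.32, and 1 of 9 neutrophil markers was lower in both replicates. Fgg differed by -0.03 and -0.38, but of 35 acute phase, complement and coagulation genes 11 were higher in both replicates and 5 lower in both. Of 17 actin genes and targets of the serum response factor, 4 were higher in both and 3 lower in both. Elovl3 differed by -6.91 in replicate 1 and by 0.65 in replicate 2. Among ribosome biogenesis genes 28 of 32 were higher in both replicates and 1 was lower in both. Of 26 heat shock and folding genes 8 were higher in both and 12 lower in both. Of the 33 endoplasmic reticulum genes 9 were higher in both and 11 lower in both. Of 12 Kupffer cell or macrophage markers 8 were higher in both and 0 lower in both.

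**Figure D5:**
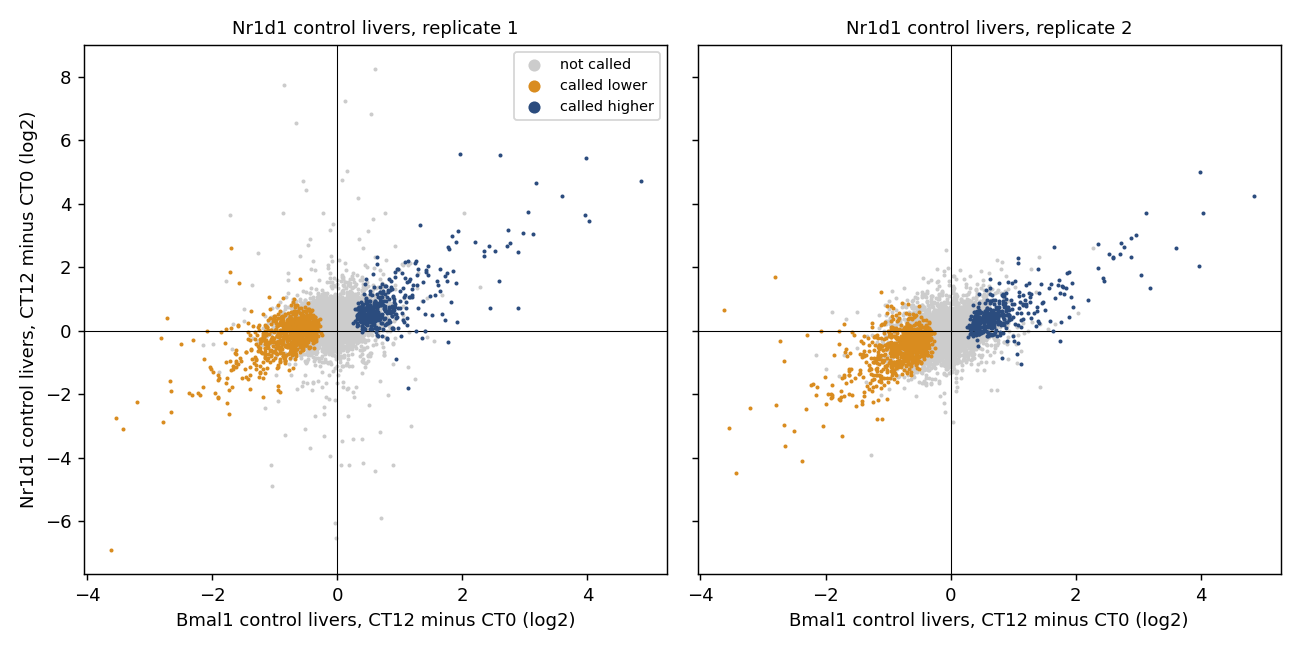
CT12 minus CT0 difference in log2(RPKM + 0.5) of each of 11392 genes in the Bmal1 control livers (horizontal, 3 against 3 livers) and in replicate 1 (left) and replicate 2 (right) of the Nr1d1 control livers (vertical, 1 against 1 liver), with genes called higher in blue, lower in orange and others in grey. The blue points lie mostly in the upper right quadrant; across genes Pearson's r was 0.40 and 0.54, a description over genes measured in shared libraries.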

How the data were processed

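RNA-seq libraries of mouse liver had been deposited by the authors as RPKM per Ensembl transcript. The submitters' processing notes name TopHat2, Bowtie, bedtools 2.19.1 and mouse build mm9. Tool roles, annotation, read filters and strand setting: not given in the sources used here. Replicates were deposited separately.

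The 46585 transcripts present in every library were reduced to 22322 symbols, each represented by its transcript of highest mean log2(RPKM + 0.5). A gene was tested if its mean over the 6 control libraries reached 0.5 RPKM. limma 3.58.1 (R 4.3.3; lmFit and eBayes with a mean trend) was fitted on log2(RPKM + 0.5) to the 12 Bmal1 libraries with 4 group means, and its use was tested on simulated data. Tests were two-sided, with Benjamini-Hochberg adjusted p under 0.05 over all genes. Errors are SE from the fit to the 12 Bmal1 libraries for log2 differences and SD for RPKM. Whole reads were recovered for 98.8% of tested genes within a tolerance of 0.05. They are the smallest whole numbers that matched the RPKM steps, so each is a minimum. They served to show depth and the few reads behind low values of Gm129 and Per1, and entered no test. No count model was used.

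The lists (38 of pathways, 10 of markers) and the comparison were chosen with earlier results of these data known. Named genes were the 12 largest rises and falls without overlap, the 6 largest gains and losses in RPKM, up to 5 called members per list, and all members of the 2 clock lists; a few of these genes are not reported here. Alternatives changed the pseudocount, filter, scaling, transcript choice, model and libraries. At most 0.006% of values were identical between libraries. Sequences are from RefSeq (GRCm38.p6).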

Additional observations from a re-analysis of the deposited data

Results flagged for a closer look

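The genes listed here changed over time in control livers and by a different amount in Bmal1 knockout livers (interaction of genotype and time, limma, adjusted p from 6.43e-07 for Elovl3 to 0.0442 for Clock, 3 livers per group). Values are the log2 time difference in knockout minus that in control livers, for 43 of the 176 named genes that changed. Over all genes tested the interaction called 155 of 11392 (1.36%). The named genes were chosen by their difference in control livers, which the interaction subtracts. That choice favours interaction calls and values of opposite sign, so neither the count nor the signs are a result about these genes. Which of these interaction calls held with 1 library left out is not given here. No explanation was tested. The control call of Fga was lost without CT12 replicate 3 (adjusted p = 0.0536). That of Crot was lost without CT0 replicate 2 (0.0701), CT0 replicate 3 (0.0651), CT12 replicate 1 (0.0652) or CT12 replicate 2 (0.0623). That of Lbp was lost without CT0 replicate 1 (0.0602), CT0 replicate 3 (0.0617) or CT12 replicate 3 (0.0596).

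Of clock genes and their partners, the difference was -3.64 for Gm129, -2.62 for Dbp, -2.67 for Per3, -2.13 for Per2 and -1.94 for Tef. It was 2.82 for Arntl, 1.97 for Npas2 and 1.03 for Clock. Other rises in control livers with a negative difference were those of Upp2 (-2.16), Wee1 (-2.33), Nampt (-1.60), Cyp2a5 (-2.56), Cyp2a4 (-2.56) and Gys2 (-1.83). The same held for Por (-1.49), Serpina6 (-1.39), Abcb1a (-1.20) and Tcp1 (-0.56). Inmt (-1.39) rose in control livers and differed by -0.61 in knockout livers (adjusted p = 0.026).

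Among the falls, the value for Elovl3 was 5.02, and its mean in knockout livers was 89.18 RPKM at CT0 and 239.9 RPKM at CT12. Tubb2a (2.93), Insig2 (2.88), Spon2 (2.51), Clpx (2.40) and Crot (2.20) followed. The values were 2.12 for Ppp1r3c, 2.00 for Loxl4, 1.97 for Chka, 1.96 for Ndrg1, 1.79 for Slc30a10 and 1.72 for Atf5. For Slc34a2 it was 1.55, for Hsd3b7 1.43, for Fga 1.20, for Gldc 1.17 and for Fgg 1.14. Smaller differences were those of Hsd17b2 (1.09), Slc16a1 (1.09), Cbs (1.08), Lbp (1.04), Amt (1.01) and Abcb11 (0.81). Dio1, a deiodinase gene, was higher at CT12 in control livers (0.58, adjusted p = 0.0366), and its difference was 1.25. That call was lost without CT0 replicates 1, 2 or 3 (0.0997, 0.0952 and 0.0807) or CT12 replicates 2 or 3 (0.109 and 0.136).

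For 8 named genes, the CT12 livers all lay on one side of the CT0 livers in the Bmal1 controls, while both replicates of the Nr1d1 control livers differed in the opposite direction. These contrasts between the 2 sets were not tested. Of all called genes, 5 of 394 rises (1.27%) and 70 of 841 falls (8.32%) were opposite in both replicates. The median difference of all genes tested was 0.23 in replicate 1 and -0.04 in replicate 2. The replicate 1 values of Krt7, Derl3 and Hsd17b2 given below are smaller than that median, so their sign depends on scaling. Hspa1b, higher in Bmal1 controls (1.13), differed by -1.81 and -1.04 in Nr1d1 control replicates 1 and 2. The other 7 were lower in Bmal1 controls. Igfbp1 (-1.70) differed by 2.61 and 0.21, Krt7 by 0.13 and 1.21, Derl3 by 0.03 and 0.72 and C1qb by 0.63 and 0.03. Colec11 differed by 0.45 and 0.06, Sc5d by 0.31 and 0.23, and Hsd17b2 by 0.06 and 0.02. Apart from Hsd17b2, the Bmal1 control calls of these genes were each lost without 3 to 5 of the 6 libraries. The highest adjusted p was 0.0722 for Hspa1b, 0.118 for Derl3 and 0.111 for Colec11 (without CT0 replicate 2), 0.137 for Sc5d (without CT0 replicate 3), 0.11 for Krt7 (without CT12 replicate 1), and 0.102 for Igfbp1 and 0.0888 for C1qb (without CT12 replicate 3).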

How the results depend on the processing

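Without 1 control library the count of genes changed over time was 647 to 1023, with 195 to 323 higher and 427 to 700 lower. Without CT0 replicate 1 the number higher was 256. The interaction called 81 to 143 genes without 1 of the 12 libraries, being 97, 81 and 100 without CT0 controls 1, 2 and 3, 92 and 90 without CT12 controls 1 and 3, and 94 and 90 without CT12 knockouts 2 and 3. Scaling by a trimmed mean of log ratios gave 659 higher and 584 lower, median-centred libraries 585 and 629, and quantile normalization 589 and 596. Scaling without the 100 most abundant genes gave 456 higher and 824 lower, so the excess of falls remained under it. The replicate block gave 1172 changed genes and 131 for the interaction. Deviations of same-numbered CT0 and CT12 controls correlated at 0.03, -0.04 and 0.02, so the numbers were not taken as pairs. Cry1 turned positive in median-centred libraries (0.04), with the trimmed mean (0.06) and quantile normalization (0.07), and without CT0 replicate 1 (0.02), CT0 replicate 2 (0.04) or CT12 replicate 2 (0.02), within a range of -0.14 to 0.04 over the libraries left out. Nr1d1 did so without CT0 replicate 3 (0.10), within a range of -0.64 to 0.10. The cause was not tested. Low RPKM rests on few reads: Per1 had 2 recovered reads in its lowest library, which is a minimum count.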

Other observations

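Of 20 metal handling genes, 1 was called higher and 5 lower (0 and 2 kept with each library left out), a balance that depended on scaling. Slc30a10, a manganese exporter, was 11.22, 10.19 and 10.18 RPKM at CT0 and 2.40, 2.67 and 2.38 RPKM at CT12 (-1.89 ± 0.12, adjusted p = 3.1e-06). Hfe2, the hemojuvelin gene of iron sensing, fell from 22.62 ± 0.99 to 13.44 ± 1.43 RPKM (adjusted p = 0.000989). With a trimmed mean of log ratios 3 of the 20 rose and 2 fell. Of 27 water channels and ion or nutrient carriers, 6 rose and 6 fell (3 and 4 kept). The phosphate carrier gene Slc34a2 went from 2.60, 2.61 and 1.20 RPKM to 0.10, 0.04 and 0.08 RPKM (-2.15 ± 0.23, adjusted p = 0.000142), and the lactate carrier gene Slc16a1 from 17.90 ± 2.26 to 8.47 ± 0.91 RPKM (adjusted p = 0.000534). The glutamine carrier gene Slc38a2 rose from 17.23 ± 1.38 to 33.54 ± 4.93 RPKM (adjusted p = 0.00332).

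Of 18 thyroid and steroid hormone genes 3 rose and 2 fell (1 and 1 kept), and Hsd17b2, which inactivates estradiol, fell from 102.44 ± 11.80 to 61.92 ± 11.77 RPKM (adjusted p = 0.00753). Bnip3, a mitophagy receptor, rose from 57.40 ± 7.44 to 132.92 ± 23.34 RPKM (1.20 ± 0.15, adjusted p = 0.000417), 1 of 2 rises beside 3 falls among 26 autophagy and lysosome genes (1 and 1 kept). Mfn1, of mitochondrial fusion, rose from 16.64 ± 1.64 to 24.73 ± 1.77 RPKM (adjusted p = 0.00327), 1 of 2 rises beside 1 fall among 24 genes of mitochondrial dynamics and biogenesis (1 and 1 kept). Of 17 polyamine and growth genes 2 rose and 1 fell (1 and 0 kept). Interferon and antigen presentation genes had 2 falls among 33 (0 kept), male-biased liver genes 1 fall among 19 (1 kept), and female-biased liver genes 3 rises among 18 (2 kept). None of the 3 cold-inducible RNA-binding protein genes was called by limma: Cirbp differed by -0.67, Rbm3 by 0.48 and Srsf5 by -0.28.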
